A study of Mus musculus with 15 samples.

Results

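The variable segments of the antibody heavy chain (Ighv) and of the kappa light chain (Igkv) were followed in RNA-seq counts from whole mouse lung after bleomycin. They were the genes of the count table that the GENCODE M21 annotation types as immunoglobulin variable genes and whose symbols begin with Ighv or Igkv. The table held 199 of the 213 annotated segments among its 33340 genes, 104 Ighv and 95 Igkv, and 198 had a count in at least 1 of the 15 libraries. The other 14 were not analysed here.

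All libraries came from lungs of male C57BL/6 mice. The study's methods give an age of 10 to 12 weeks for mice that received bleomycin and of 10 to 14 weeks for the mice of all experiments. Bleomycin, a drug that breaks DNA and scars the lung, was given into the trachea at 5 U/kg, and lungs were taken at day 7 (4 libraries), day 14 (4 libraries) and day 21 (3 libraries). The day 0 group held 4 libraries titled as controls. The series description gives 3 replicates at each time, so the numbers used here, from the titles, exceed it at days 0, 7 and 14. Day 0 replicate 4 has a treatment label that names bleomycin but a control title, and the title was followed. Nothing in the labels says that libraries of a group came from separate mice, so the p-values measure the spread between these libraries.

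A B cell builds the variable region of each antibody chain by joining 1 variable segment to shorter D and J pieces (heavy chain) or to a J piece (light chain). The daughter cells of a B cell keep the segment pair that it chose. Plasma cells, the antibody-secreting end stage, transcribe these joined genes far more strongly than resting B cells do, and a plasma cell clone can therefore lift the reads of its own heavy and light segments together. A count on a germline segment does not show which joins it came from, and in bulk tissue more cells of a type and more RNA per cell cannot be told apart.

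The Ighv segments lie on mouse chromosome 12 between 113578504 and 116000461 (GRCm38), all on the minus strand, in 15 families. The Igkv segments lie on chromosome 6 between 67555497 and 70704177, with 37 on the plus strand and 58 on the minus strand, in 18 families. Segments of a family resemble each other closely. Only 36 of the 199 were unique at every window of 50 bases of their transcripts, 28 were unique at under 50% of windows, and the medians were 77.8% for Ighv and 74.7% for Igkv. Reads that mapped to several places had been left out of the counts, so the levels of close relatives are uncertain.

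The segments on which most of the findings turned are printed below as the last 300 bases of the coding part of their variable exon (299 bases, the whole part, for Igkv4-69), from the GENCODE M21 transcripts on GRCm38, 5′ to 3′ in the direction of transcription. Capitals mark the bases that differ from the closest other segment of the table. Ighv1-15 (chr12:114657353-114657652, minus strand) and Igkv4-69 (chr6:69283794-69284092, minus strand) are shown because they led the same day 7 library. Ighv1-15 differed from Ighv1-23 at 5 of 305 bases, and Igkv4-69 differed from Igkv4-70 at 13 of 299.
Ighv1-15: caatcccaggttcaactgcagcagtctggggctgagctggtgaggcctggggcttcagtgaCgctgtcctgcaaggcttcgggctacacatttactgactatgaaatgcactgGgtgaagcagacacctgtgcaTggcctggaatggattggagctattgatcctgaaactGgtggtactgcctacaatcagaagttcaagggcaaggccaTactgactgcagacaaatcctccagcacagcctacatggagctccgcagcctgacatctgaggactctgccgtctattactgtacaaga
Igkv4-69: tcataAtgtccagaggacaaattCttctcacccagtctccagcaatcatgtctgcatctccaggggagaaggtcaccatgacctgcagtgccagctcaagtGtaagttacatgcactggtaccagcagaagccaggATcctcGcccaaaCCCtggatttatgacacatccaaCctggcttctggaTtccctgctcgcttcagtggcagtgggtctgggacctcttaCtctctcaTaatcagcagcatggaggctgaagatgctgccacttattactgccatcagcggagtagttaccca

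Ighv1-81 (chr12:115920279-115920578, minus strand) is shown because it led the heavy chain in most libraries after bleomycin. It differed from its closest relative, Ighv1-85, at 22 of 305 bases, and 88.4% of its windows of 50 bases were unique.
Ighv1-81: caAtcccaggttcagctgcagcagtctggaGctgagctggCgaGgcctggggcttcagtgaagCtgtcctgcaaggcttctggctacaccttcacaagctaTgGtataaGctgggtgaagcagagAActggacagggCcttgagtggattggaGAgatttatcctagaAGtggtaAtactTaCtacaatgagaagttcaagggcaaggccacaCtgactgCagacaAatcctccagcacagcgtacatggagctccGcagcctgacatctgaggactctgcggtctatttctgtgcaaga

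Igkv1-117 (chr6:68121528-68121827, plus strand) and Igkv1-110 (chr6:68270968-68271267, plus strand) led the kappa chain most often. They are each other's closest relatives, with 96.8% identity and 10 differing bases in 313, and 50.1% and 49.1% of their windows were unique.
Igkv1-117: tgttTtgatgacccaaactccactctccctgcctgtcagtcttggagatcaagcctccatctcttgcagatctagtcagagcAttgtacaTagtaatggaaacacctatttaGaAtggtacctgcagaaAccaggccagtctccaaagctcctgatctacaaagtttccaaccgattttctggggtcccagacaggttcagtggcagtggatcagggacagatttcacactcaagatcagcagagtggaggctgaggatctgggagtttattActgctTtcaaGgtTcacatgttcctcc
Igkv1-110: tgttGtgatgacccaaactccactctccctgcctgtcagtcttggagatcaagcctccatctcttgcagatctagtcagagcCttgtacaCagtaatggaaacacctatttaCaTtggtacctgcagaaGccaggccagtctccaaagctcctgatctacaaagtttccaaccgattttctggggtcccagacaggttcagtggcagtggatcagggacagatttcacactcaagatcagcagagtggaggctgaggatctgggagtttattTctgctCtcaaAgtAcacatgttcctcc

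Ighv9-2 (chr12:114109001-114109300, minus strand) and Igkv8-19 (chr6:70340876-70341175, minus strand) each made up a large part of their chain in 1 day 21 library.
Ighv9-2: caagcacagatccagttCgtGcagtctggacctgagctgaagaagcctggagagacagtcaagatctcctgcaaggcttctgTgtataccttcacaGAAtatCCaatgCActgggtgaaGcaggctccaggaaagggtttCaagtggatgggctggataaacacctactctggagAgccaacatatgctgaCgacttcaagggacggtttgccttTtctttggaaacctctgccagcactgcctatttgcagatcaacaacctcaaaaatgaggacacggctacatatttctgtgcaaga
Igkv8-19: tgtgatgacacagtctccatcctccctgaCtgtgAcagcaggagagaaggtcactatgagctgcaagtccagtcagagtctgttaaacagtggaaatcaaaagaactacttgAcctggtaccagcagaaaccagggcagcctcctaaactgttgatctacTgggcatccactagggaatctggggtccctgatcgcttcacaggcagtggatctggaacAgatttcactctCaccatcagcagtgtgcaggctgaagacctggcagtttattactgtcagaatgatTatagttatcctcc

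The libraries held 15652008 to 18020661 counts, and the variable segments were a very small part of them. Mitochondrial genes took between 2.03% and 4.22% of the counts. They were at 2.28% and 2.31% in day 0 replicates 1 and 2 and at 4.22% and 4.04% in replicates 3 and 4, under 2.5% in every day 7 library and in day 14 replicate 1, and over 3.5% in the other day 14 libraries and in day 21 replicate 1. Surfactant and other lung genes were present in every library, with a summed level of the 8 genes listed between 10878 and 69514 counts per 1000000 (CPM).

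The summed level of the segments was highest at day 21 and in 1 day 7 library. CPM here is the count divided by the library's total over the tested genes after TMM scaling. The Ighv sum at day 0 was 35.9, 85.7, 15.2 and 13.9 CPM in replicates 1 to 4, on 554, 1418, 240 and 250 counts. At day 7 it was 417.2, 41.4, 102.3 and 18.8 CPM, at day 14 it was 55.9, 7.02, 26.4 and 15.2 CPM, and at day 21 it was 343.0, 63.0 and 162.1 CPM. The day 21 libraries thus overlapped day 0 through 1 library on each side, and the day 14 range overlapped that of day 0. The Igkv sum was 60.2, 138.2, 32.0 and 21.0 CPM at day 0. It was 569.5, 47.3, 139.7 and 23.2 CPM at day 7, then 53.8, 13.8, 37.8 and 22.1 CPM at day 14. At day 21 it was 345.2, 84.4 and 204.1 CPM. Libraries of 1 day differed by as much as 22.2-fold (Ighv) and 24.6-fold (Igkv) at day 7, so the mean ± SD there was 145 ± 185 CPM for Ighv and 195 ± 255 CPM for Igkv (n = 4). The day 21 means were 189 ± 142 and 211 ± 131 CPM (n = 3).

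Both day 0 libraries with the lower mitochondrial share held more segment RNA (96.1 and 224.0 CPM over both chains) than those with the higher share (47.2 and 35.0 CPM). Within the lower set, day 7 held 41.98 to 986.7 CPM. Within the higher set, day 14 held 20.9 to 64.2 CPM and day 21 replicate 1 held 688.2 CPM. Day 14 replicate 1, in the lower set, held 109.7 CPM, more than the other day 14 libraries. The part of the mitochondrial share in these sums was not tested.

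**Figure D1:**
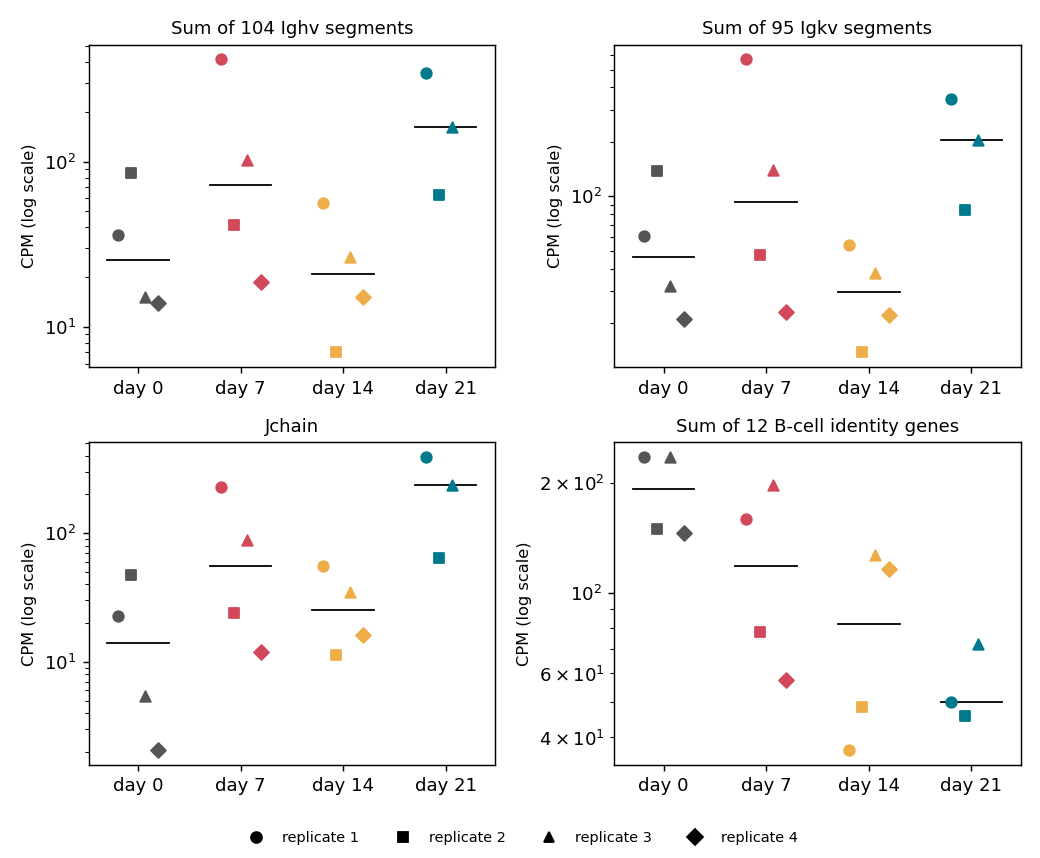
Summed levels in CPM on log axes, with 1 point per library, the marker giving the replicate number and the bar the median of the day. The day 21 Ighv sums (63.0 to 343.0 CPM) sit mostly above day 0, Jchain is also highest there or in day 7 replicate 1, and the sum of the 12 B-cell identity genes is lower at day 21 than at day 0 in every library.

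At day 21 most B-cell identity genes were lower than at day 0, while Jchain and several antibody constant regions were higher. Of the 12 genes listed for B-cell identity, 9 were lower at day 14 than at day 0 and 11 at day 21, with none higher, where 11.2% and 10.1% of all tested genes were lower. The genes that fell included Pax5, the factor that holds B-cell identity. The 12 genes summed to 236.3, 150.1, 236.0 and 146.2 CPM at day 0 and 50.2, 45.8 and 72.5 CPM at day 21, without overlap. Jchain, which links antibody units into IgA dimers and IgM pentamers, was 22.7, 46.9, 5.40 and 2.06 CPM at day 0 and 389.3, 63.8 and 237.1 CPM at day 21. Its log2 fold change at day 21 was 3.58 ± 1.02 (SE, adjusted p = 0.0151, edgeR quasi-likelihood test). Of the 11 tested genes of the plasma cell list, 2 rose and 1 fell at day 21, near the shares of all tested genes called higher (12.4%) and lower (10.1%). Igha, the IgA heavy constant region, was 46.4, 33.1, 9.97 and 3.07 CPM at day 0 and 1115.5, 141.9 and 672.3 CPM at day 21, a log2 fold change of 4.80 ± 1.01 (SE, adjusted p = 0.0023). Of the 11 tested constant region genes, 5 rose and 1 fell at day 21. Igkc, the kappa constant region, differed by 2.58 ± 0.89 at day 21 (adjusted p = 0.0396).

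Of the 4 tested genes in the germinal centre list, 1 rose and none fell at day 7, 1 rose and 1 fell at day 14, and 1 fell at day 21. Of all tested genes, 8.78% were higher and 7.36% lower at day 7, 12.0% and 11.2% at day 14, and 12.4% and 10.1% at day 21, so single calls in a list of this size are not a result about it. Vpreb3, a surrogate light chain relative that B cells keep, was the 1 tested gene of the 7 listed for recombination and pre-B cells, and it was lower at day 14 (log2 fold change -2.72 ± 0.33, adjusted p = 2.2e-05) and at day 21 (-2.78 ± 0.37, adjusted p = 6.9e-05). Of the genes listed for cells or tissue near the segments' source, none of the 5 T-cell genes was called at day 21, 1 of 5 follicle chemokine genes rose and 1 fell, 1 of 4 lymph node or thymus genes rose and 2 fell, and 5 of the 8 lung genes fell. These counts stand against the same 12.4% and 10.1% of all tested genes, and those of the follicle and lymph node lists are 1 or 2 genes each. Their part in the segment levels was not tested. T-cell receptor variable segments, the like genes of T cells, summed to 1.79 to 13.3 CPM over 91 genes, with 3.02 to 6.88 CPM at day 21 against 4.46 to 8.13 CPM at day 0. The 3 lambda variable segments summed to 125.2, 20 and 30 CPM at day 21 and to 3.40 to 17.6 CPM at day 0, and Iglv1 made up 98.9%, 96.3% and 66.1% of their counts at day 21.

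Of the 199 segments, 99 passed the filter on low counts and were tested with all 17457 genes (43 Ighv, 56 Igkv). The filter asks for enough counts in as many libraries as the smallest group holds, the 3 of day 21. A segment high at day 21 alone could therefore pass, and the medians and calls of day 21 may be raised by this. In fits of 2 groups alone, 20 segments passed for day 14 and day 0, and 61 for day 21 and day 0. A segment was called at an adjusted p under 0.05 and a fold above 1.5. At day 7, 8 segments were higher than at day 0 and none was lower, where 8.78% of all tested genes were called higher and 7.36% lower. Their log2 fold changes ran from 2.31 to 6.98, and over all 99 the median was 0.71 against 0.01 over all genes. Without day 7 replicate 1 no segment was called, 16 of 94 had an unadjusted p under 0.05 against 32.3% of all tested genes, and the median was 0.07. With no filter on low counts the median was 0.21 over 198 segments. Without day 0 replicate 3, 1 of 98 segments was higher and 1 lower, where 1233 of 17361 genes were higher and 944 lower. Without day 0 replicate 4, 1 of 99 was higher and 1 lower, where 1183 of 17344 genes were higher and 918 lower. Within the libraries under 2.5% mitochondrial share 8 of 87 tested segments were lower at day 7 and none was higher, where 5.27% of all tested genes were lower and 7.54% higher. An unadjusted p under 0.05 was seen there for 13 of the 87 and for 34.9% of all tested genes.

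The day 7 calls were largely those of 1 library, since 7 of the 8 segments had their highest level of all in day 7 replicate 1. Igkv12-46 was 0.583, 0.302, 0.444 and 0.112 CPM at day 0 and 31.9, 3.01, 0.989 and 0.238 CPM at day 7, a log2 fold change of 4.64 ± 1.21 (SE, adjusted p = 0.0123). It overlapped day 0 through replicate 4. Ighv1-53 was the only segment of the 8 whose day 7 libraries (1.19 to 13.4 CPM) all lay above day 0 (0.302 to 0.971 CPM), with a log2 fold change of 3.04 ± 0.93 (adjusted p = 0.0273), whereas 92.6% of all genes called higher had levels without overlap. Without day 7 replicate 1 the log2 fold change of Ighv1-53 was 1.96 (adjusted p = 0.136). Ighv1-82, Ighv5-9-1, Ighv1-55, Igkv10-96, Ighv1-15 and Ighv1-81 were the other calls.

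At day 14, 7 segments were lower than at day 0 and none was higher, against 11.2% of all tested genes lower and 12.0% higher. Of the 7, 6 had their highest level of all libraries in day 0 replicate 2, and without that library 1 call was left. Igkv8-24 was 1.36, 20.1, 0.508 and 0.112 CPM at day 0 and 0.886, 0.0638, 0.286 and 0.121 CPM at day 14, a log2 fold change of -3.98 ± 1.45 (adjusted p = 0.0450), and without day 0 replicate 2 it was -0.93. The call that was left was Igkv19-93, at 6.47, 8.47, 0.952 and 0.669 CPM at day 0 and 0.650, 0, 0.286 and 0.241 CPM at day 14. It was the only one of the 7 whose days did not overlap, against 85.1% of all genes called lower, and its log2 fold change was -3.76 ± 0.96 (adjusted p = 0.0073) and -3.16 without day 0 replicate 2. Without day 14 replicate 2 a single segment was called lower. Within the libraries over 3.5% mitochondrial share none of the 18 tested segments was called in either direction, where 8.78% of all tested genes were higher and 8.87% lower. An unadjusted p under 0.05 was seen for 4 of the 18 and for 33.7% of all tested genes.

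At day 21, 27 segments were higher than at day 0 (13 Ighv, 14 Igkv) and none was lower, or 27 of 99 against 12.4% of all tested genes called higher and 10.1% called lower. The median log2 fold change of the 99 was 2.25 against 0.02 over all genes, and the called segments ran from 2.45 to 5.24. The median was 1.10 without day 21 replicate 1 and 1.52 over the 198 segments fitted with no filter. The levels of 13 of the 27 did not overlap between the days, whereas 91.7% of all genes called higher had levels without overlap. Of the 27, 23 had at least 50% unique windows. Leaving out 1 library gave between 12 calls of 108 (without day 21 replicate 1) and 40 of 117 (without day 21 replicate 2). There 1656 of 17816 and 2022 of 17874 genes were higher. The filter asks for fewer libraries once a day 21 library is left out, so more segments were tested. Without day 0 replicate 4, whose labels disagree, 13 of 99 were called, where 1880 of 17344 genes were higher.

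Among the named segments, Ighv1-81, Ighv8-8, Ighv5-17 and Igkv8-21 stayed called at day 21 in all 16 alternative fits that gave them a value. Ighv8-8 was 0.324, 0.484, 0.381 and 0.335 CPM at day 0 and 7.73, 7.69 and 3.41 CPM at day 21, a log2 fold change of 4.02 ± 0.66 (adjusted p = 0.000415). Ighv5-17 was 0.583, 0.847, 0.127 and 0.502 CPM at day 0 and 9.59, 6.67 and 5.82 CPM at day 21, a log2 fold change of 3.81 ± 0.85 (adjusted p = 0.0035). Igkv8-21 was 0.324, 0.0605, 0.444 and 0.167 CPM at day 0 and 10.3, 4.62 and 1.76 CPM at day 21, a log2 fold change of 4.46 ± 0.86 (adjusted p = 0.0013). The days did not overlap for any of these. Igkv1-110 and Igkv8-27 were also higher without overlap, by 3.17 ± 0.92 and 3.65 ± 1.03 on the log2 scale (adjusted p = 0.0168 and 0.0142), and Igkv1-117, Ighv1-53, Ighv1-72 and Igkv4-53 were higher with overlap. The call was lost in 1 of 16 alternatives for Igkv1-110, 2 of 16 for Igkv8-27, 4 of 16 for Ighv1-53, 6 of 16 for Igkv1-117, 9 of 15 for Ighv1-72 and 9 of 16 for Igkv4-53. Without day 21 replicate 1 Igkv1-117 differed by 1.41 in place of 2.93 on the log2 scale, and without day 21 replicate 2 Igkv8-27 differed by 1.92.

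Day 14 and day 7 were compared directly with 5 segments lower at day 14 and none higher, against 3.23% and 2.77% of all genes. None was called without day 7 replicate 1, or without day 14 replicate 2, where 294 of 17412 and 163 of 17401 genes were lower. Between day 21 and day 14 edgeR called no segment and no gene (0.00% of the genes tested), and 60 of the 99 segments had an unadjusted p under 0.05, as did 9.82% of all tested genes. The median log2 fold change of the 99 was 2.75 against -0.0021 over all genes. With no filter the median was 2.46 over 198 segments against 0 over all genes. There 14 of the 198 were called higher, as were 31 of 32890 genes. With the filter but without day 21 replicate 1 the median was 1.64, and 41 of 108 segments had an unadjusted p under 0.05 against 6.02% of all tested genes. Without day 14 replicate 1, edgeR called 6 of 98 segments higher, as it did 69 of 17409 genes. Without day 21 replicate 3 it called 4 of 111 segments higher, as it did 16 of 17898 genes. DESeq2 called 12 segments higher at day 21 than at day 14 and none lower, where 0.173% of all genes were called higher and 0.149% lower. Ighv8-8 was 0.827, 0.0638, 0.343 and 0.483 CPM at day 14, each below its 3 day 21 levels, with a log2 fold change of 3.84 and an adjusted p of 0.114.

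Ighv1-81 was the segment that recurred most. It held the largest share of heavy-chain counts in 8 of the 11 libraries after bleomycin and in none of the 4 at day 0. In day 7 replicate 2 the lead was narrow, at 12.8% against 12.4% for the next segment. In day 0 replicates 3 and 4 it had the second largest share. It was picked out by these leads, so they are a description. Its level was 1.94, 2.06, 1.02 and 0.725 CPM at day 0, 13.7, 5.30, 17.7 and 0.357 CPM at day 7, 14.4, 1.91, 7.67 and 1.33 CPM at day 14, and 57.0, 12.6 and 49.4 CPM at day 21. The log2 fold change was 2.69 ± 0.91 at day 7 (adjusted p = 0.0404), 2.14 ± 0.91 at day 14 (adjusted p = 0.0818, and called with no filter, with a replicate block, in the 2 groups alone and without day 14 replicate 4) and 4.79 ± 0.97 at day 21 (adjusted p = 0.0018). The day 21 libraries lay above every day 0 library, and the day 7 and day 14 libraries overlapped them. The day 7 call was lost without any 1 library except day 7 replicate 4, and within the libraries under 2.5% mitochondrial share the value was 2.19 (adjusted p = 0.175).

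As a share of all Ighv counts, Ighv1-81 took 5.42%, 2.40%, 6.67% and 5.20% at day 0. It took 3.29%, 12.8%, 17.3% and 1.90% at day 7, then 25.7%, 27.3%, 29.0% and 8.73% at day 14, and 16.6%, 20% and 30.5% at day 21. Every day 14 and day 21 library exceeded every day 0 library, on counts of 22 to 922 after bleomycin in those libraries and 13 to 34 at day 0. In the libraries over 3.5% mitochondrial share the same order held, with 6.67% and 5.20% at day 0 and 27.3%, 29.0% and 8.73% at day 14. Shares within a chain do not depend on the size of the library or on its scaling.

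**Figure D2:**
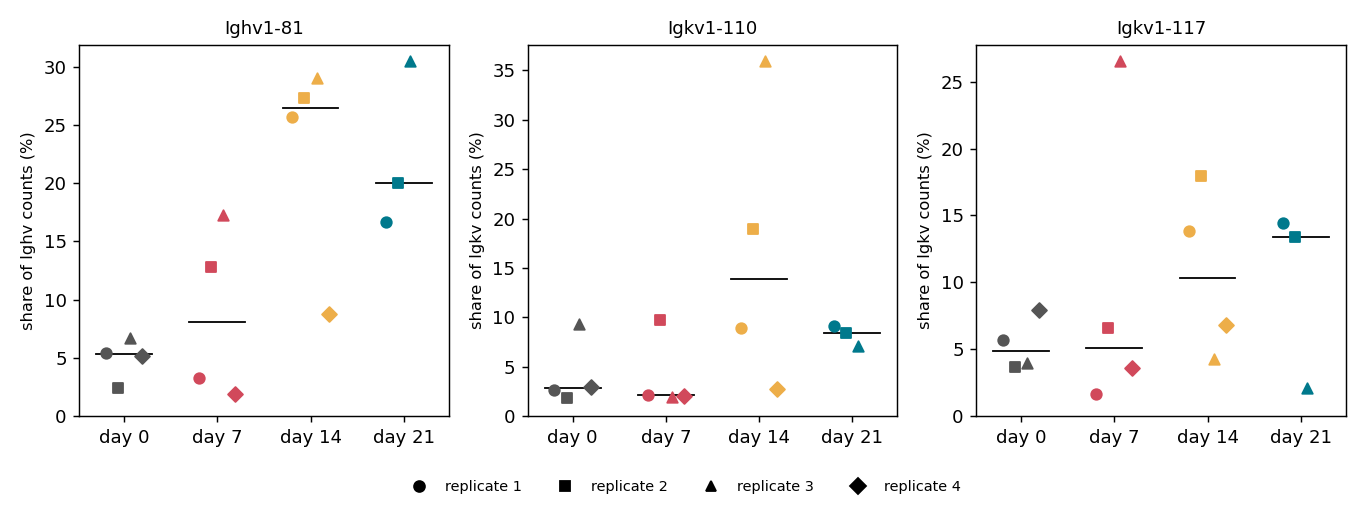
Share of the chain's counts, in percent, taken by Ighv1-81, Igkv1-110 and Igkv1-117 in each library by day, with markers for replicate numbers and bars for medians. Ighv1-81 takes 2.40% to 6.67% at day 0 and 8.73% to 30.5% at days 14 and 21, whereas the kappa segments overlap day 0 on every day.

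The kappa chain had no segment that recurred as widely. Igkv1-117 led 5 of 15 libraries, among them day 0 replicate 4, and Igkv1-110 led 3. Igkv1-110 took 2.69%, 1.88%, 9.33% and 2.92% of kappa counts at day 0 and 8.90%, 18.9%, 35.9% and 2.73% at day 14. In day 21 replicates 1 and 3 it took 9.08% and 7.06%, within the day 0 range. Igkv1-117 took 3.67% to 7.96% at day 0 and 14.5%, 13.4% and 2.104% at day 21. Both overlapped day 0, and their counts may be split by their close similarity. Together with 6 other segments they form the Igkv1 family, which took 11.5% to 19.6% of kappa counts at day 0 and 23.6%, 41.0%, 42.6% and 13.7% at day 14.

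In day 7 replicate 1 a heavy and a light segment stood far above all others. Ighv1-15 had 2771 of the 7366 heavy-chain counts there, a share of 37.6% (95% Wilson interval 36.5% to 38.7%), at 156.9 CPM against a median of 0.257 CPM and at most 6.62 CPM in the other 14 libraries. Igkv4-69 had 5580 of 10056 kappa counts, a share of 55.5% (54.5% to 56.5%), at 316.0 CPM against at most 1.53 CPM in any other library. The intervals cover counting error only. The same library held the highest level of Ighg2c, an IgG heavy constant region, at 851.2 CPM against 161.6 CPM in the next library. Ighv1-82 (12.3%), Ighv1-26 (11.0%) and Igkv6-15 (9.90%) also stood high there.

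Igkv4-69 and Ighv9-2 failed the filter because their counts were nearly all in 1 library each, so they had no test after it. Ighv1-15 passed it, and its day 7 log2 fold change of 6.98 ± 2.16 (adjusted p = 0.0287) rested on that 1 library, since without it the value was -0.58.

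Other libraries were led by other segments, some of them shared. Day 7 replicate 3 gave 26.5% of kappa counts to Igkv1-117, 17.0% to Igkv3-12 and 14.8% of heavy-chain counts to Ighv7-3, and it also held the highest Ighg3, another IgG constant region, at 93.0 CPM against at most 9.03 CPM elsewhere. Day 21 replicate 3 gave 30.3% of kappa counts to Igkv8-19, at 61.9 CPM against at most 4.01 CPM elsewhere. Day 21 replicate 1 gave 12.8% of heavy-chain counts to Ighv9-2, with 708 counts at 43.8 CPM against at most 4 counts in any other library. Day 21 replicate 2 gave 12.2% to Ighv8-8, 10.6% to Ighv5-17 and 13.2% of kappa counts to Igkv8-27. At day 0, replicate 2 gave 23.3% of heavy-chain counts to Ighv3-6 and 14.5%, 13.4% and 11.4% of kappa counts to Igkv8-24, Igkv4-59 and Igkv12-41, so a high share of a few segments was also seen in a control library.

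**Figure D3:**
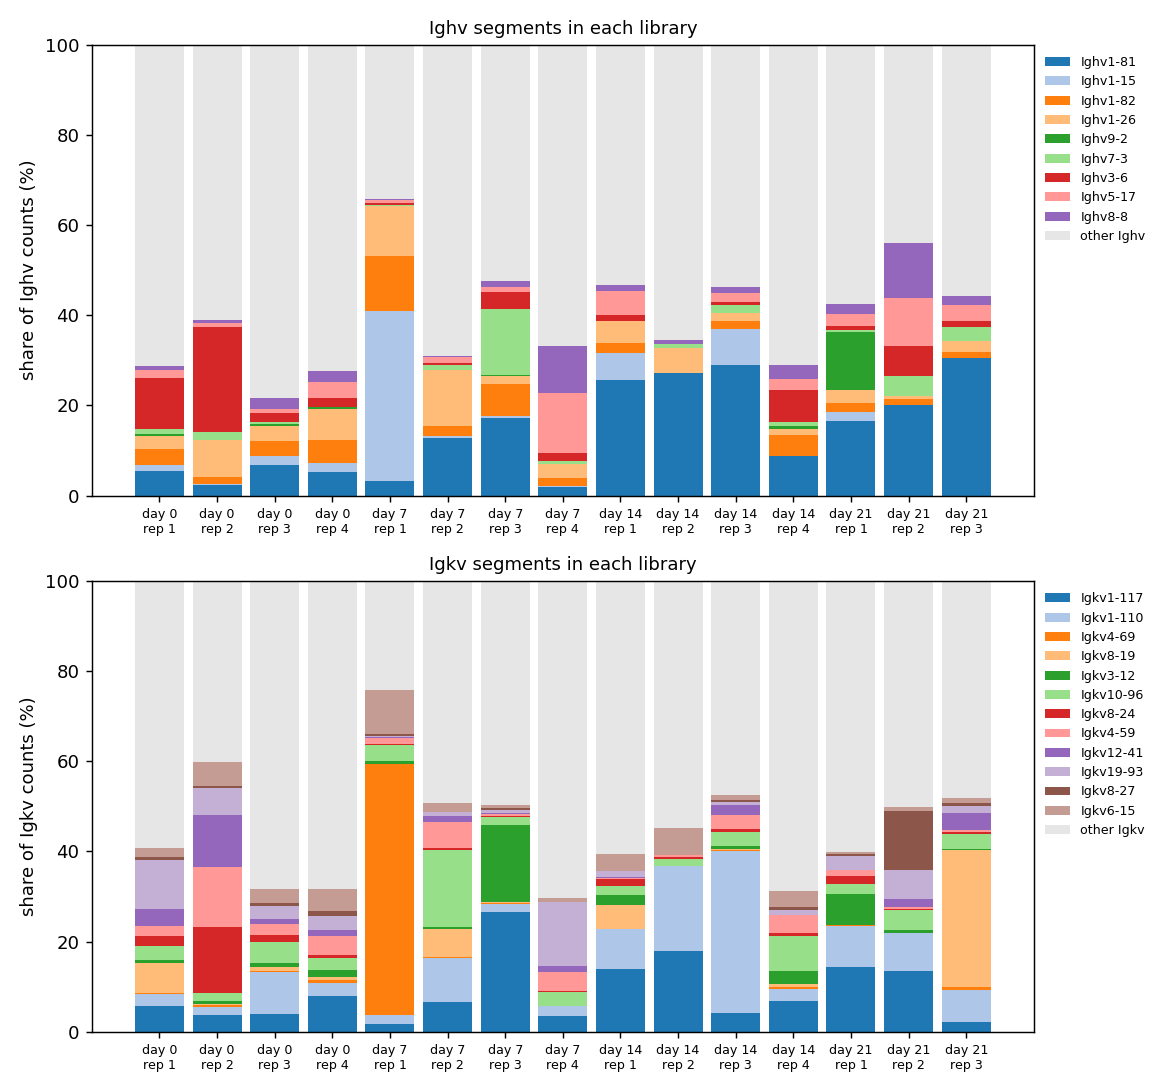
Share of Ighv counts (top) and Igkv counts (bottom), in percent, taken by the leading segments in each of the 15 libraries, with all other segments of the chain in grey. Day 7 replicate 1 stands out by Ighv1-15 (37.6%) and Igkv4-69 (55.5%), and Ighv1-81 (dark blue, top) is wide in most day 14 and day 21 libraries.

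Most segments were concentrated in a few libraries. The highest library held a median of 46.5% of a segment's summed CPM in Ighv and 40.3% in Igkv, and over 50% for 48 Ighv and 28 Igkv segments. Only 10 Ighv and 19 Igkv segments had a count in all 15 libraries. The highest library was most often day 21 replicate 1 (56 segments), followed by day 21 replicate 3 (31), day 7 replicate 1 (24) and day 0 replicate 2 (22). Levels were low, with medians over the segments of 0.324 CPM (Ighv) and 0.509 CPM (Igkv). Dividing counts by exon length left the leading segment unchanged in 15 of 15 libraries for Ighv and in 14 of 15 for Igkv.

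**Figure D4:**
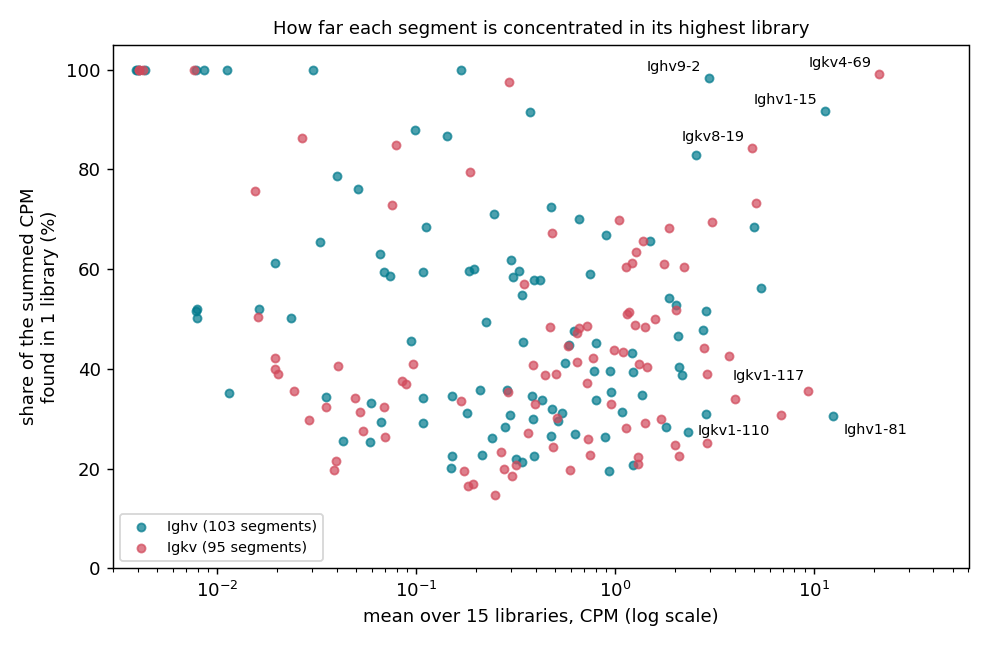
Each segment by its mean CPM over 15 libraries (log axis) and the percent of its summed CPM that lies in its highest library. Igkv4-69, Ighv9-2, Ighv1-15 and Igkv8-19 lie at the top with over 80% in 1 library, and Ighv1-81, the segment with the highest Ighv mean, has 30.5%.

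The spread of counts over segments was described by the effective number, the number of equally used segments that would give the same Shannon entropy. To set libraries of unlike depth side by side, each was thinned to the smallest chain total, 110 Ighv and 217 Igkv counts. For Ighv the thinned number was 31.7, 20.4, 35.5 and 36.8 at day 0 and 9.26, 19.9, 18.3 and 22.9 at day 7. It was 18.8, 17.8, 19.96 and 27.4 at day 14 and 23.2, 15.8 and 17.95 at day 21. Of the day 0 libraries 3 lay above all 11 later ones, and replicate 2 lay among them. For Igkv it was 39.3, 21.2, 45.8 and 43.8 at day 0, and 6.80, 25.6, 17.8 and 30.3 at day 7. It was 24.96, 16.3, 21.3 and 37.0 at day 14, and 27.5, 19.4 and 19.2 at day 21, with the same library of day 0 apart from the rest. For Igkv this order depended on 1 segment of day 14 replicate 3. Unthinned and without its leading segment Igkv1-110 that library reached 53.1, above day 0 replicates 1 and 4 at 49.7 and 49.2 without theirs. Before thinning, the means were 39.7 ± 8.43, 22.0 ± 7.19, 24.8 ± 6.11 and 24.8 ± 6.01 for Ighv at days 0, 7, 14 and 21 (SD, n = 4, 4, 4 and 3). No p-value is given for this score.

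**Figure D5:**
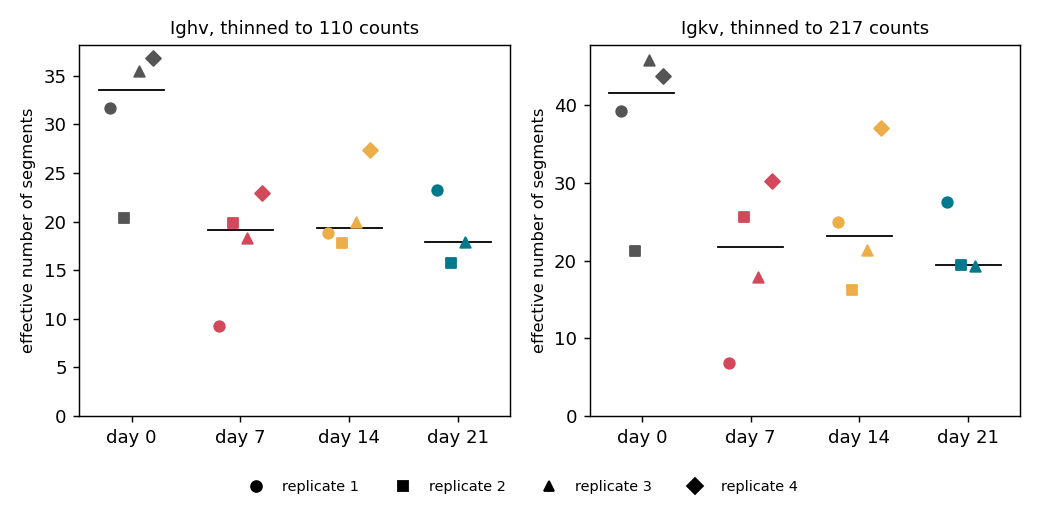
Effective number of segments per library after thinning to 110 Ighv counts (left) and 217 Igkv counts (right), by day, with markers for replicate numbers and bars for medians. Day 0 replicates 1, 3 and 4 sit above every later library in both chains, while day 0 replicate 2 lies among the later ones and day 7 replicate 1 is lowest, at 9.26 and 6.80.

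Libraries of day 7 resembled each other least. The share of segment use that a pair of libraries had in common, the sum over segments of the smaller share, had a median of 52.4% for Ighv and 56.4% for Igkv between day 0 libraries. It was 33.1% and 31.1% within day 7, 47.5% and 44.9% within day 14, and 49.2% and 43.3% within day 21. Depth differed between the libraries, and pairs share libraries, so these medians are a description.

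By family, Ighv1, the largest heavy-chain family with 51 segments, took a mean of 62.5% of heavy-chain counts over the 15 libraries, with means of 57.3% ± 8.44, 66.0% ± 18.5, 67.5% ± 7.21 and 58.3% ± 9.82 on days 0, 7, 14 and 21 (SD). Ighv3 took 12.8%, 23.8%, 5.42% and 2.40% at day 0 and 1.86%, 6.52% and 3.56% at day 21. Igkv8 took 14.6%, 15.8%, 10.3% and 6.90% of kappa counts at day 0, 1.51% to 8.50% at day 7 and 10.2%, 19.2% and 33.6% at day 21. Igkv4, with 26 segments, took 61.1% in day 7 replicate 1, where Igkv4-69 led, and 7.89% to 29.0% in the other libraries. Of the 33 families, 3 lay below their day 0 range in every day 7 library (Ighv2, Ighv9 and Ighv14). Igkv14 lay above it and Igkv19 below it in every day 14 library, and Ighv8 above it and Igkv16 below it in every day 21 library. Igkv19 and Igkv16 hold 1 segment each. Ighv8 took 1.69% to 4.17% at day 0 and 4.39% to 12.9% at day 21. With 3 or 4 libraries a day, some of 33 families can separate by chance alone, so these counts are not a result about the families. The family shares were not tested.

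Position along the locus was described by the 52 Ighv segments nearest the D and J segments, which took 35.4% to 58.6% of heavy-chain counts at day 0, 17.6% to 39.9% at day 7, 23.6% to 39.7% at day 14 and 34.6% to 43.3% at day 21. Ighv1-81, Ighv1-82 and the other high-numbered Ighv1 segments lie at the far end.

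Segments known for particular antigens were near the floor or uneven. Ighv11-2 and Ighv12-3, used by B-1 cells that bind phosphatidylcholine, stayed at or below 1.18 and 0.223 CPM in every library and were not tested. Igkv14-126, the usual partner of Ighv11-2, reached 9.23 CPM in day 7 replicate 1 and was at most 2.103 CPM elsewhere, and it was not called at any day (adjusted p = 0.0842 at day 7). Igkv4-91, the partner of Ighv12-3, reached 10.3 CPM in day 21 replicate 1 (adjusted p = 0.0679 at day 21). Ighv7-1, used against phosphorylcholine, was at most 0.847 CPM. Ighv1-72, the heavy segment known from the response to the hapten NP in this strain, was 0.453, 0.423, 0.381 and 0.0558 CPM at day 0 and 7.92, 0.0570 and 4.59 CPM at day 21, a log2 fold change of 3.66 ± 1.17 (adjusted p = 0.0272), a call lost in 9 of 15 alternatives. Only 7.49% of its windows of 50 bases were unique, with Ighv1-62-3 its closest relative at 99.0% identity, so its level is uncertain. The reads were paired and 150 bp long, so these windows do not give the part of the gene that its counts came from.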

How the data were processed

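Whole lungs of C57BL/6 mice were profiled by polyA RNA-seq (NEBNext Ultra kit, 150 bp paired-end reads) in 15 libraries. The authors trimmed reads with TrimGalore 0.6.10, aligned them with HISAT2 2.1.0 to mm10 (GRCm38), left out multi-mapped reads, counted reads per gene with HTSeq 0.6.0 and deposited raw counts. The annotation release and strand setting are not given in the sources used here. Groups follow the sample titles. Gene types and variable exons were taken from GENCODE M21, and rows without a match there held 0.0089% of the counts. No genome sequence was at hand, so exons were read from its transcripts.

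All genes were fitted over all 15 libraries with edgeR 4.0.16 (filterByExpr, TMM, quasi-likelihood test, Benjamini-Hochberg adjustment over 17457 genes, R 4.3.3), calling an adjusted p under 0.05 and a fold above 1.5. Alternatives were DESeq2 1.42.0, limma 3.58.1 (voom), other scalings and filters, the 2 groups alone, a replicate block, mitochondrial share as a covariate, and leaving out each library. The fits within libraries of like mitochondrial share, the sums and effective numbers without the leading segment, and the effective number per exon length were chosen after seeing the data. On data simulated from the real day 0 means, 60 of 99 genes changed 2-fold and 88 of 98 changed 4-fold were called at day 7 against day 0. This was over 16810 genes, and 9 of 16613 unchanged genes were called. The changed genes were drawn from all genes that passed the filter, so these rates are not those of the segments. Effective numbers were exponentials of the Shannon entropy, thinned exactly to the smallest chain total. Identity between exons came from global alignment.

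The segments and gene lists were chosen with earlier results of these data known. Segments named were, per chain, the 8 with the highest mean CPM, the leading segment of each library, those with at least 10% of the chain's counts on at least 100 counts, the 3 called segments of at least 1 CPM with the largest change per contrast with day 0, and segments known for phosphatidylcholine, phosphorylcholine or NP binding. Ighv1-85, Ighv1-23, Igkv4-70 and Ighv1-62-3 appear as closest relatives and lambda segments as a comparison.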

Additional observations from a re-analysis of the deposited data

Results flagged for a closer look

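In 123 groups of 4 libraries (37 named segments, the sums and the effective numbers at days 0, 7 and 14), 32 had a library far from the other 3 by Dixon's test at the 95% level, where chance flags about 1 in 20 groups. Many of these segments were named because they led a library or changed most, so the number far from the rest cannot be read against chance. Day 0 replicate 2 accounted for 11 of them and day 7 replicate 1 for 9.

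In day 0 replicate 2, segments far above the other libraries were Ighv1-26 at 7.14 CPM (others 0.508 to 1.04), Ighv1-80 at 7.26 CPM (others 0.335 to 1.33), Ighv12-3 at 0.181 CPM (others at 0) and Ighv7-1 at 0.847 CPM (others 0 to 0.0647). The same library stood apart for Igkv12-41 at 15.8 CPM (others 0.279 to 2.27), Igkv4-55 at 8.83 CPM (others 0.167 to 0.388), Igkv4-59 at 18.6 CPM (others 0.825 to 1.36) and Igkv4-69 at 0.484 CPM (others 0.0635 to 0.112). It did so too for Igkv6-15 at 7.14 CPM (others up to 1.23) and Igkv8-24 at 20.1 CPM (others 0.112 to 1.36). The effective number of Ighv segments there was 27.2, below the 43.1 to 45.2 of the other day 0 libraries. In day 0 replicate 1, the level far above the others was that of Igkv8-19 at 4.01 CPM (others 0.167 to 0.302). In day 7 replicate 1, segments far above the other libraries were Ighv1-15 at 156.9 CPM (others 0.0595 to 0.384), Ighv1-26 at 46.0 CPM (others 0.595 to 5.08), Ighv1-82 at 51.3 CPM (others 0.297 to 7.30) and Ighv5-9-1 at 31.7 CPM (others 0.119 to 0.726). The same library stood apart for Ighv7-1 at 0.736 CPM (others 0 to 0.0549), Igkv12-46 at 31.9 CPM (others 0.238 to 3.01), Igkv14-126 at 9.23 CPM (others 0 to 0.769) and Igkv4-69 at 316.0 CPM (others 0 to 0.220). It did so too for Igkv6-15 at 56.4 CPM (others 0.238 to 0.949). In day 7 replicate 2, the level far above the others was that of Ighv12-3 at 0.223 CPM (others at 0). In day 7 replicate 3, segments far above the other libraries were Ighv7-3 at 15.2 CPM (others 0.119 to 0.623) and Igkv3-12 at 23.8 CPM (others 0 to 3.12). In day 14 replicate 4, segments far above the other libraries were Ighv1-18 at 1.75 CPM (others 0 to 0.286) and Ighv9-2 at 0.121 CPM (others at 0). In day 14 replicate 1, segments far above the other libraries were Ighv1-26 at 2.72 CPM (others 0.181 to 0.458), Ighv11-2 at 1.18 CPM (others 0 to 0.0638), Igkv1-117 at 7.44 CPM (others 1.51 to 2.49) and Igkv8-19 at 2.84 CPM (others 0 to 0.181). In day 14 replicate 3, segments far above the other libraries were Ighv7-1 at 0.286 CPM (others at 0) and Igkv12-41 at 0.858 CPM (others 0 to 0.118). The low levels among these, under 0.3 CPM, rest on a handful of counts. The sums themselves were not far enough apart by this test on any of the 3 days.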

How the results depend on the processing

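The 27 segments called higher at day 21 changed in number with the settings. Without a filter 47 of 198 segments were higher and 1 was lower, where 2113 of 32890 genes were higher and 1968 lower. With DESeq2 24 of 199 were higher and 1 was lower, where 2270 of 32855 genes were higher and 2046 lower. With limma voom 11 of 99 were higher, and with mitochondrial share as a covariate 30 of 99. There 2104 and 2277 of 17457 genes were higher. In the 2 groups alone 24 of 61 were higher, where 1828 of 16756 genes were. Leaving out 1 library gave 12 of 108 to 40 of 117 higher and 0 to 1 lower. Day 7 calls of higher segments went from 8 of 99 to 22 of 198 without a filter and 5 of 37 in the 2 groups alone. There 1555 of 32890 and 1496 of 16207 genes were higher. They were 0 of 99 with voom and with the mitochondrial covariate, where 1467 and 867 of 17457 genes were higher. They were 0 of 87 within the libraries under 2.5% mitochondrial share and 0 to 14 with 1 library left out. Lower calls at day 7 went from 0 to 1 with DESeq2, RLE size factors, the covariate, no filter, or a minimum mean of 1 CPM. In these 5 settings 57 to 199 segments were tested, and 402 to 1638 genes were lower. Lower calls went to 8 of 87 within the lower mitochondrial set, where 880 of 16708 genes were lower, and to 0 to 1 with 1 library left out. Lower calls at day 14 went from 7 of 99 to 14 of 199 with DESeq2, 15 of 198 without a filter and 2 of 20 in the 2 groups alone. There 2179 of 32855, 2064 of 32890 and 1900 of 16308 genes were lower. They were 0 of 99 with voom and 1 of 99 with the covariate, where 2000 and 2037 of 17457 genes were lower. They were 0 of 18 within the libraries over 3.5% mitochondrial share and 1 to 11 with 1 library left out. Higher calls at day 14 went from 0 to 2 of 198 without a filter and 1 of 20 in the 2 groups alone. There 2048 of 32890 and 1740 of 16308 genes were higher. With 1 library left out these calls were 0 to 1. Between day 14 and day 7, the 5 lower calls became 14 of 199 with DESeq2, 24 of 198 without a filter and 1 of 30 in the 2 groups alone. There 832 of 32855, 717 of 32890 and 494 of 16205 genes were lower. They became 0 of 99 with voom and with the covariate, where 597 and 106 of 17457 genes were lower, and 0 to 6 with 1 library left out. Between day 21 and day 14, DESeq2 gave 12 higher calls of 199 and no filter gave 14 of 198. There 57 of 32855 and 31 of 32890 genes were higher. Leaving out 1 library gave 0 to 6 higher calls against 0. The causes were not tested.

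Libraries that share a replicate number did not all deviate together, with correlations from -0.26 to 0.42. Among the libraries of other days, 6 of the 15 libraries correlated best with one of their own number. The main fit assumed no pairing, and these correlations cannot show whether the numbers pair the libraries. With a replicate block in the fit, 5 of 99 segments were higher at day 7, 1 was higher and 4 were lower at day 14, and 16 were higher at day 21. Of 17457 genes, 1585 were higher at day 7, 2056 higher and 2057 lower at day 14, and 2024 higher at day 21. The block left the other counts of calls within 1.5 times.

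Of the 26 single-segment results, 1 reversed: Ighv1-15 at day 7 went from 6.98 to -0.58 on the log2 scale without day 7 replicate 1, and leaving out any 1 library gave -0.58 to 7.39. The others kept their direction in every alternative, and 138 of all 430 single-segment comparisons with an alternative lost the call. Ighv1-81 at day 14 gained it in 4 (no filter, the replicate block, the 2 groups alone and without day 14 replicate 4). Effective numbers depended on depth and on the index. The Ighv mean at day 0 fell from 39.7 to 31.1 after thinning. By the inverse Simpson index the Ighv means were 25.5, 12.9, 13.1 and 12.5 at days 0, 7, 14 and 21, and the Igkv means were 29.1, 12.4, 16.1 and 14.5. Without the leading segment of each library the Ighv number was 43.8, 24.8, 32.7 and 32.4 and the Igkv number 45.1, 29.9, 35.3 and 31.0 at days 0, 7, 14 and 21. Sums moved by less than 1 SD under total count scaling, unique segments or without the leading segment, but the day 7 Igkv mean went from 194.9 to 103.8 CPM without the leading segment of each library, a move smaller than its SD of 255 CPM. With 1 library left out, the Ighv sums ranged from 21.7 to 45.6 CPM at day 0, 54.1 to 186.9 at day 7, 16.2 to 32.5 at day 14 and 112.5 to 252.5 at day 21. The Igkv sums ranged from 37.7 to 76.8, 70.1 to 252.2, 24.6 to 37.9 and 144.2 to 274.7 CPM. Depth limits the day 14 values most, where a chain total was as low as 110 counts.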
